A study of Cyprinus carpio with 12 samples.

Results

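The extracellular matrix genes of common carp (Cyprinus carpio) were examined for CpG methylation in sperm and in mid-blastula embryos. Members were the protein-coding genes on the 25 A and 25 B chromosomes whose symbol starts like that of a collagen, laminin, ADAM or ADAMTS protein, fibrillin, fibulin, perlecan, agrin, matrix metalloproteinase, lysyl oxidase, matrilin, thrombospondin, tenascin C, EXT glycosyltransferase or sulphotransferase of matrix glycans. The pattern found 104 of 41870 placed protein-coding genes, and 1 more match, col9a3, lay on unplaced sequence and was left out. No perlecan or agrin gene was among them. Only 9616 of the placed genes carry a gene symbol in the RefSeq table, so matrix genes known by a locus number are not included, and many genes of this allotetraploid fish have a near-identical copy on the other subgenome. loxhd1b matched by symbol only, since it is named after a domain and encodes a protein of hair-cell stereocilia.

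Whole-genome bisulphite sequencing, in which unmethylated cytosines are read as thymine, was applied to 12 libraries in 4 groups of 3. According to the labels these were sperm at day 0 after stripping, sperm at day 14 after stripping, mid-blastula embryos derived from day 0 sperm and mid-blastula embryos derived from day 14 sperm. Per the study's methods, each male gave both the fresh and the stored sample, which was kept on ice in an extender, eggs of 1 female were used, and DNA was taken from pools of embryos. The methods mention repeated stripping of the males but give no dates of stripping or fertilisation for the libraries. Whether fresh and stored sperm came from different strippings, or were used on different days, is not given in the sources used here, and neither can be told apart from storage. The deposited lists of differentially methylated regions (DMRs) give 1 level per group and region, so no level below carries a replicate error, no depth is known and no test of storage could be made. Cell identity could not be checked, because lists of regions hold no marker levels.

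The extracellular matrix is the secreted scaffold around cells. Collagens and laminins form its fibres and basement membranes, lysyl oxidases cross-link its fibres, metalloproteases of the MMP, ADAM and ADAMTS families cleave its proteins or release proteins from the cell surface, and sulphotransferases place the sulphate groups to which growth factors bind on its glycans. In zebrafish embryos laminin genes are required for the notochord and for body axis formation. At the mid-blastula stage fish embryos start to transcribe their own genome, before the notochord and other matrix-rich tissues form.

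A gene was counted as differentially methylated when at least 1 listed DMR lay in its body or within 1 kb of either end. All DMRs in the lists hold at least 5 CpGs and differ by at least 0.1, or 10 percentage points, between the group levels. A DMR is called hypermethylated when its level was higher, and hypomethylated when it was lower, in the group with stored sperm. Coordinates refer to assembly ASM1834038v1.

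In stored sperm 39 of the 104 matrix genes held a DMR, or 37.5% (95% Wilson interval 28.8 to 47.1, counting error only). Over all placed protein-coding genes 28.3% held one. Matrix genes are long, with a median of 23.6 kb against 8.56 kb for all genes, and long genes hold more DMRs. Among genes of like length, taken as the shares in 20 length classes of equal gene number, 51.0 of 104 genes would hold a DMR, so the observed number was 0.764 times that number. The members carried 85 sperm DMRs where genes of like length would carry 115.9. The longest class reaches 1793 kb, while the longest member has 254.6 kb. With the nearest 200 genes by length, chosen after seeing the data, the number was 106.35. Numbers of DMRs at like length for groups of members below use the classes. The density in members was 20.1 DMRs per Mb of gene and flank, against 24.3 per Mb over all genes. A larger share of matrix genes than of all genes thus held a sperm DMR, but the share was smaller than at like length and the density of DMRs was below that of all genes.

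In embryos from stored sperm 44 matrix genes held a DMR, or 42.3% (33.3 to 51.9), against 26.9% of all genes. The number in genes of like length was 48.9, a ratio of 0.90. There were 83 embryo DMRs against 107.3 in genes of like length, or 98.5 with the nearest 200 genes. Per Mb there were 19.6, against 22.5 over all genes. Both lists together reached 53 members, of which 30 held a DMR in both, 9 in sperm only and 14 in embryos only. For all genes 14.5% held a DMR in both lists, and genes of like length would give 32.9 such members. Shares over all genes, or at like length, with a DMR in a single list or in neither were not computed. The other 51 members held no DMR, with a median length of 16.96 kb, against 48.8 kb for members with a DMR. In sperm the number fell short of that at like length in short, middle and long members. Among the 35 shortest members 4 held a sperm DMR against 7.72 for like length, among the 34 of middle length 10 against 15.1, and among the 35 longest 25 against 28.2. In embryos these numbers were 7 against 7.13, 13 against 14.4 and 24 against 27.3, so the shortest members showed almost no shortfall.

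**Figure D1:**
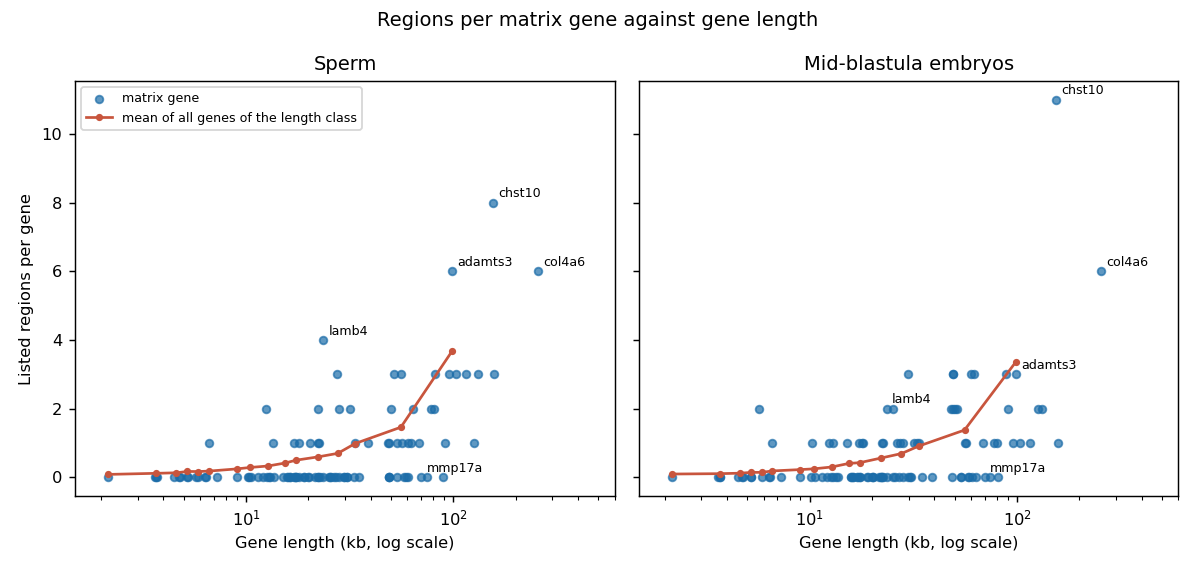
Listed DMRs per matrix gene (vertical axis) against gene length in kb (log scale), for sperm and embryos, with 1 point per gene. The line gives the mean of all placed protein-coding genes in a length class, drawn at the median length of the members in that class. Of the 20 classes only those that hold a member are drawn. chst10 reached 8 DMRs in sperm and 11 in embryos, and mmp17a, of 69.9 kb, held none.

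In matrix genes most DMRs were hypermethylated in sperm and hypomethylated in embryos. In sperm 59 of 85 DMRs were hypermethylated, or 69.4% (Wilson interval 59.0 to 78.2), where 64.0% were hypermethylated over all genes and genes of like length would give 64.0%. In embryos 33 of 83 were hypermethylated, or 39.8% (29.9 to 50.5), against 50.1% over all genes and 49.7% at like length. Both intervals include the shares they are set against. They treat DMRs as independent, although 5 members carried 27 of the 85 sperm and 24 of the 83 embryo DMRs. Counted by gene, 33 members had a hypermethylated and 18 a hypomethylated DMR in sperm, against background shares of 21.3% and 13.2% of all genes. In embryos 25 members had a hypermethylated and 34 a hypomethylated DMR, against 16.7% and 16.5% of all genes. These background shares are over genes of any length, while members are longer. Numbers at like length were not computed by direction, so no excess can be read from these counts. In sperm 21 members had hypermethylated DMRs alone, 6 hypomethylated DMRs alone and 12 both. In embryos the counts were 10, 19 and 15. Shares of these classes over all genes were not computed, so no trait of matrix genes can be read from them.

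Most of these DMRs lay in highly methylated sequence and were small. The median level of hypermethylated sperm DMRs in matrix genes was 82.8% in fresh and 96.3% in stored sperm, and that of hypomethylated ones 93.5% and 82.5%. In embryos hypermethylated DMRs had medians of 83.9% and 96.5%, and hypomethylated ones 96.5% and 82.3%. A mean level of at least 75% was found in 73 of 85 sperm DMRs and in 71 of 83 embryo DMRs, or 85.9% and 85.5%, against 81.1% and 79.5% over all genes. In this class 51 sperm DMRs were hypermethylated and 22 hypomethylated, which at 69.9% was close to the 69.0% of all genes, while in embryos 27 were hypermethylated and 44 hypomethylated, or 38.0% against 49.4%. A difference of at least 20 percentage points was reached by 2 sperm and 5 embryo DMRs. These are 2.35% and 6.02% of the members' DMRs, against 8.23% and 9.08% of DMRs in all genes. In sperm 45 of 85 and in embryos 44 of 83 differed by less than 12 points, near the threshold of the lists. These are 52.9% and 53.0%, against 47.2% and 46.4% over all genes.

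**Figure D2:**
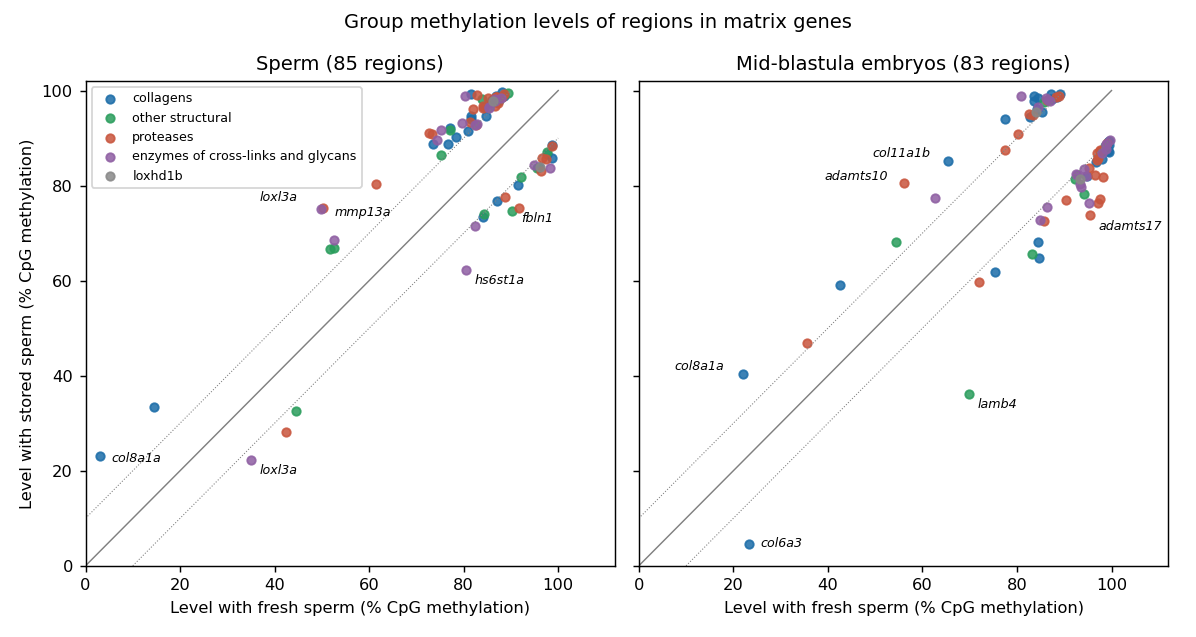
Group level with stored sperm (vertical axis) against group level with fresh sperm (horizontal axis), both in % CpG methylation, for each DMR in a matrix gene, coloured by the gene's role. The solid line marks equal levels and the dotted lines a difference of 10 points, inside which no DMR is listed. Most points lie above 75% on both axes, above the line in sperm (59 of 85) and below it in embryos (50 of 83).

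Among structural proteins, collagens made up 32 members. In sperm 13 of them held 26 DMRs, of which 19 were hypermethylated and 7 hypomethylated, where like length would give 17.4 genes and 39.7 DMRs. In embryos 16 held 28 DMRs, 15 hypermethylated and 13 hypomethylated, against 16.6 genes and 36.7 DMRs. The hypermethylated shares were 73.1% in sperm and 53.6% in embryos, against 64.0% and 50.1% over all genes, and the differences were not tested. The 9 fibrillar collagens, which build the tension-bearing fibres, had few DMRs. Sperm DMRs were found in col1a2 and col11a1b alone, where 5.10 genes would be reached at like length, and embryo DMRs in col1a1b, col5a3a and col11a1b, against 4.93. In col1a2, a chain of type I collagen, the level was 84.3% in fresh and 96.5% in stored sperm. In col1a1b, the other kind of type I chain, embryo DMRs had 77.6% with fresh and 94.0% with stored sperm at chromosome A12, 1922362 to 1922520, and 97.9% and 85.5% at 1925266 to 1925371. Both embryo DMRs of col5a3a, a minor fibrillar chain, were lower with stored sperm, from 99.3% to 87.2% and from 99.1% to 88.6%. The genes col2a1a and col1a1a held no DMR in either list and neither did col27a1b, col5a2b and col5a3b.

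Among collagens of basement membranes, networks and anchoring structures the counts lay below like length in sperm and above it in embryos, and the difference between the lists was not tested. Of 13 genes 4 held 10 sperm DMRs and 8 held 15 embryo DMRs, against 6.55 and 6.22 genes at like length. col8a1a, which encodes a network-forming collagen and is needed for a straight notochord in zebrafish, stood out because its DMRs were at low levels. In sperm it had 3.15% with fresh and 23.0% with stored sperm at B9, 14204086 to 14204120, and 14.5% and 33.4% at 14204614 to 14204715. The embryo DMR of this gene lay between them, at 14204228 to 14204360, and had 22.05% and 40.4%. It lies 107 bp from the first and 253 bp from the second sperm DMR, and all 3 were higher with stored sperm. They were the only hypermethylated DMRs of matrix genes with a fresh level below 25%.

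The type IV collagen genes form the sheet of the basement membrane. col4a6, at 254.6 kb the longest member, held 6 DMRs in each list. In sperm 4 were hypomethylated and 2 hypermethylated, and in embryos 2 and 4. Its largest embryo differences were a fall from 84.7% to 64.7% at B7, 30007114 to 30007168, and a level of 42.6% with fresh against 59.1% with stored sperm at 30004834 to 30004895. A sperm DMR 84 bp from the first of these was lower too, at 96.0% and 83.8%, and both also touch a gene known only by a locus number or its flank. The neighbours col4a4 and col4a3, 14.2 kb apart on B15, each held 1 DMR per list, higher in stored sperm and lower in embryos. col4a3 had 81.6% and 93.9% in sperm and 99.4% and 87.1% in embryos, and col4a4 had 78.3% and 90.1%, then 96.6% and 84.9%.

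Other members of this group held DMRs in embryos alone. col8a2 had 3, the largest at 83.7% with fresh and 98.8% with stored sperm. The transmembrane collagen gene col17a1a, whose product anchors epithelial cells, had 84.5% and 68.0%, and its paralogue col17a1b 87.3% and 98.2%. That DMR is shared with the kinase gene slka. In col18a1a the level was 88.5% and 98.6%. The anchoring fibril genes col7a1 and col7a1l, of 57.8 and 58.8 kb, held none.

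The remaining collagens, among them those that sit on fibre surfaces and those of beaded filaments, were mostly hypermethylated in sperm. Of 10 genes 7 held 14 sperm DMRs, 12 hypermethylated and 2 hypomethylated, against 5.75 genes and 13.9 DMRs at like length. The hypermethylated share was 85.7%, against 64.0% of sperm DMRs in all genes, and the difference was not tested. In embryos 5 held 7 DMRs, 4 hypermethylated and 3 hypomethylated, against 5.50 genes and 12.8 DMRs. The fibre-associated col12a1a had 81.5% in fresh and 99.3% in stored sperm at B17, 24943401 to 24943434, and a further DMR with 88.2% and 99.7%. All 3 sperm DMRs of col14a1a, of the same kind, were higher in stored sperm, with fresh levels of 85.7% to 88.5% and stored levels of 97.4% to 98.8%. Its embryo DMR, at 84.5% and 98.4%, was the only member DMR that lay in a flank and not in a gene body. The microfibrillar collagen gene col6a3 had the lowest level among the members' embryo DMRs, 4.61% with stored against 23.4% with fresh sperm. This DMR lay at B9, 17815885 to 17815950. The other 2 embryo DMRs of col6a3 were higher with stored sperm, the larger at 83.5% and 97.7%. The transmembrane collagen gene col13a1 had 98.7% and 85.8% at its most different sperm DMR. Its other sperm DMRs had 86.9% and 98.8% and 97.7% and 86.6%, and its embryo DMR 99.4% and 88.5%. col6a4a, of the beaded filament family, was higher with stored sperm in both its sperm DMRs and in its embryo DMR, the last at 87.1% and 99.4%. col28a2b had 2 sperm DMRs, both higher, at 81.0% and 91.5% and at 87.3% and 97.8%. The cartilage collagen genes col9a1a and col9a2 and the gene col28a2a held none.

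Laminins, trimeric proteins of the basement membrane, had DMRs in 4 of 9 genes in sperm and 2 of 9 in embryos, against 4.39 and 4.18 at like length. lamb4, a laminin beta chain gene of 23.5 kb, held 4 sperm and 2 embryo DMRs, where genes of its length class held 0.592 and 0.562 on average. At B25, 17258197 to 17258268, both lists held a DMR of 5 CpGs with the same ends and opposite directions. Sperm had 51.8% when fresh and 66.7% after storage. In embryos the level was 69.8% from fresh and 36.1% from stored sperm. The embryo difference of -33.6 points was the largest of all member DMRs. At a distance of 209 bp another sperm DMR of 15 CpGs had 52.5% and 66.9%. Farther along the gene the order turned, with sperm levels of 84.4% and 74.0% over 18 CpGs and of 97.6% and 87.0%, and an embryo level between them of 54.4% with fresh and 68.1% with stored sperm. In lamb1a, 2.28 kb from lamb4 and required for the notochord in zebrafish, the single DMR of each list was lower, at 92.2% and 81.9% in sperm and 98.7% and 88.3% in embryos. lama1 had 83.9% and 98.1% in sperm, lamb2l had 95.6% and 83.6% in sperm, and genes such as lama3 and lamb2 held none.

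**Figure D3:**
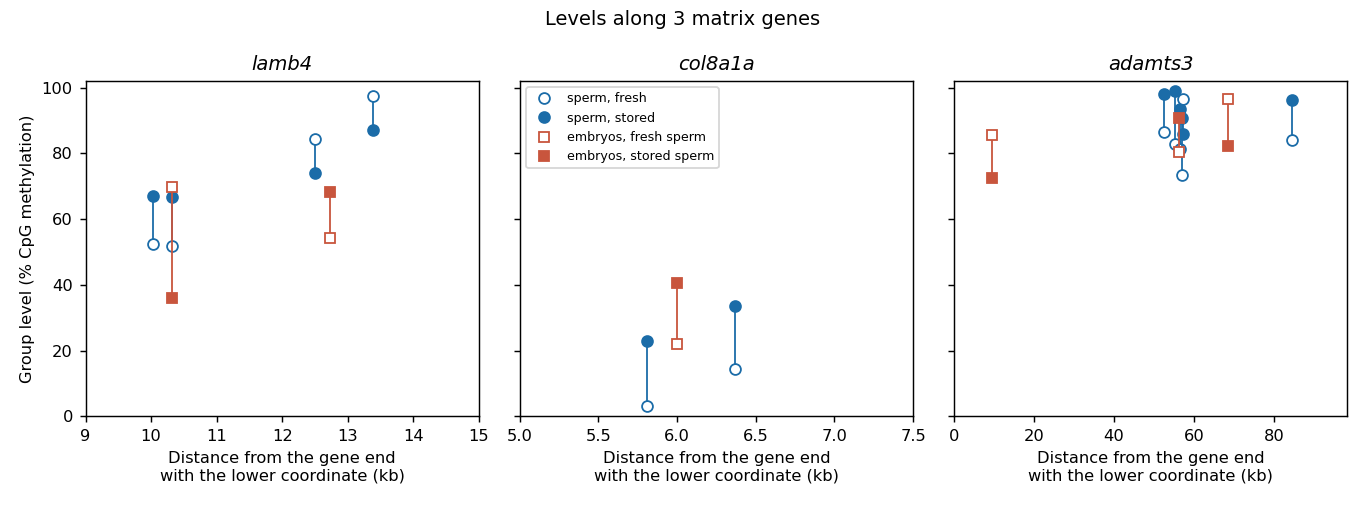
Group levels (vertical axis, % CpG methylation) of the listed DMRs along the stretch of lamb4 and col8a1a that holds DMRs and along all of adamts3, against the distance in kb from the gene end with the lower coordinate. Open symbols stand for fresh and filled symbols for stored sperm, circles for sperm libraries and squares for embryos, and a line joins both levels of a DMR. In lamb4 the sperm and embryo DMRs at the same position go in opposite directions, and in col8a1a all 3 are higher with stored sperm.

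Fibrillins and fibulins, proteins of elastic microfibrils, had DMRs in 3 of 4 genes in each list, against 2.50 in sperm and 2.40 in embryos at like length. fbn2a, a fibrillin gene, was lower with stored sperm in all 4 of its DMRs. In sperm it had 44.6% and 32.6%, and in embryos 83.2% and 65.5%, 94.2% and 78.2%, and 97.7% and 87.0%. The sperm DMR and the second of these embryo DMRs lay 61 bp apart on B10, at fresh levels that differed widely between sperm and embryos. In sperm fbln1 was lower at one DMR, with 90.2% and 74.7%, and higher at the others, with 77.2% and 91.6% and with 75.2% and 86.5%. In fbln2 a sperm DMR, at 89.4% and 99.4%, and an embryo DMR, at 98.4% and 87.8%, lay 117 bp apart and went in opposite directions. Of the 4 matricellular and linker genes, thbs3b of the thrombospondin family had 87.6% and 98.0% in sperm, and tnca, thbs3a and matn3b held none.

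The 37 protease and protease-like members had DMRs in 11 genes in sperm and 16 in embryos, against 17.2 and 16.6 at like length. Their 26 sperm DMRs were 19 hypermethylated and 7 hypomethylated, and their 24 embryo DMRs 9 and 15. Like length would give 42.7 sperm and 39.3 embryo DMRs. The hypermethylated shares were 73.1% in sperm and 37.5% in embryos, against 64.0% and 50.1% over all genes. Among the 11 ADAMTS genes, which encode secreted proteases of procollagen and proteoglycans and related proteins without protease activity, 5 held 15 sperm DMRs and 7 held 11 embryo DMRs. At like length these would be 6.36 genes and 18.8 DMRs in sperm and 6.16 genes and 17.3 DMRs in embryos. adamts3, an enzyme that removes the amino-terminal propeptide of procollagen, held 6 sperm DMRs, of which 5 were higher in stored sperm, the largest at 73.4% and 90.9%. The exception had 96.5% and 85.8%. An embryo DMR 137 bp from a sperm DMR with 81.2% and 93.4% was also higher, at 80.3% and 90.8%, and the other 2 embryo DMRs of adamts3 were lower, at 85.6% and 72.6% and at 96.5% and 82.2%.

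adamts10, which acts on fibrillin microfibrils, had the largest gain of any member in embryos. It had 56.0% with fresh and 80.5% with stored sperm at A8, 10110837 to 10110877. In sperm its DMRs were elsewhere in the gene, at 96.3% and 83.1%, 88.7% and 77.6%, and 87.0% and 98.7%. adamts17 had an embryo DMR at 95.4% and 73.7% and another at 86.3% and 97.9%. adamts6 had an intermediate sperm level, at 42.3% and 28.1%, and a second sperm DMR at 82.0% and 96.1%. All 4 DMRs of adamtsl3, a protein without a protease domain, were higher with stored sperm in both lists, and its embryo DMR lay at 35.7% and 46.9%. The adamts8a and adamtsl2 genes had 1 DMR each, in embryos, at 99.1% and 89.0% and at 97.6% and 87.4%. Without any DMR were adamts1, adamts13, adamts2a and adamtsl5.

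Of the 11 membrane-bound ADAM genes 4 held sperm DMRs and 6 embryo DMRs, against 6.12 and 5.86 at like length. In sperm 5 of the 7 DMRs were hypermethylated, and in embryos 2 of the 8. adam12b had 3 sperm DMRs, all higher in stored sperm, the largest at 72.7% and 91.1%, and no embryo DMR. adam10a, the sheddase of Notch receptors and cadherins, had 87.2% and 97.3% in sperm and, at another site on B7, 97.0% and 76.4% in embryos. adam19b had 97.6% and 77.3% in embryos. In adam15 the DMRs of sperm and embryos were 245 bp apart and both lower, at 98.6% and 88.3% and at 98.2% and 81.9%. adam11, of the group without protease activity, held 3 embryo DMRs, 2 lower, at 71.9% and 59.7% and at 95.2% and 83.7%, and 1 higher, at 82.5% and 95.1%. adam19a held sperm DMRs at 97.3% and 85.6% and at 82.6% and 92.8% and an embryo DMR at 97.0% and 85.4%, all at different sites. adam28 had 83.5% and 94.9% in embryos. adam17a, the sheddase of tumour necrosis factor, adam23a and adam8a held none. adam22, an adhesion protein without protease activity, held none over 53.5 kb.

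Matrix metalloproteinases had few DMRs. Only 2 of 15 genes held one in sperm and 3 in embryos, against 4.77 and 4.54 at like length, and 12 held none in either list. The collagenase gene mmp13a had 50.3% in fresh and 75.2% in stored sperm at B10, 18185567 to 18185651, and 61.5% and 80.4% over 29 CpGs at 18152305 to 18152591. Its remaining sperm DMR had 91.8% and 75.3%, and the embryo DMR 90.3% and 77.0%. The mmp13a gene model spans 102.9 kb, includes the member mmp30 and overlaps another protein-coding gene. All 4 DMRs also touch that gene or its 1 kb flank. The DMR at 18185567 to 18185651 touches a further protein-coding gene or its flank. These levels therefore cannot be assigned to mmp13a alone. mmp21, which acts in left-right patterning, held 1 DMR in each list within 6.62 kb, at 86.9% and 98.6% in sperm and 97.5% and 87.5% in embryos. The membrane-type gene mmp16b had 3 embryo DMRs, 2 lower and 1 higher. The 12 without a DMR include the gelatinase gene mmp9, the membrane-type genes mmp14a, mmp17a, mmp17b and mmp25a, and mmp30, which lies inside the mmp13a gene model.

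**Figure D4:**
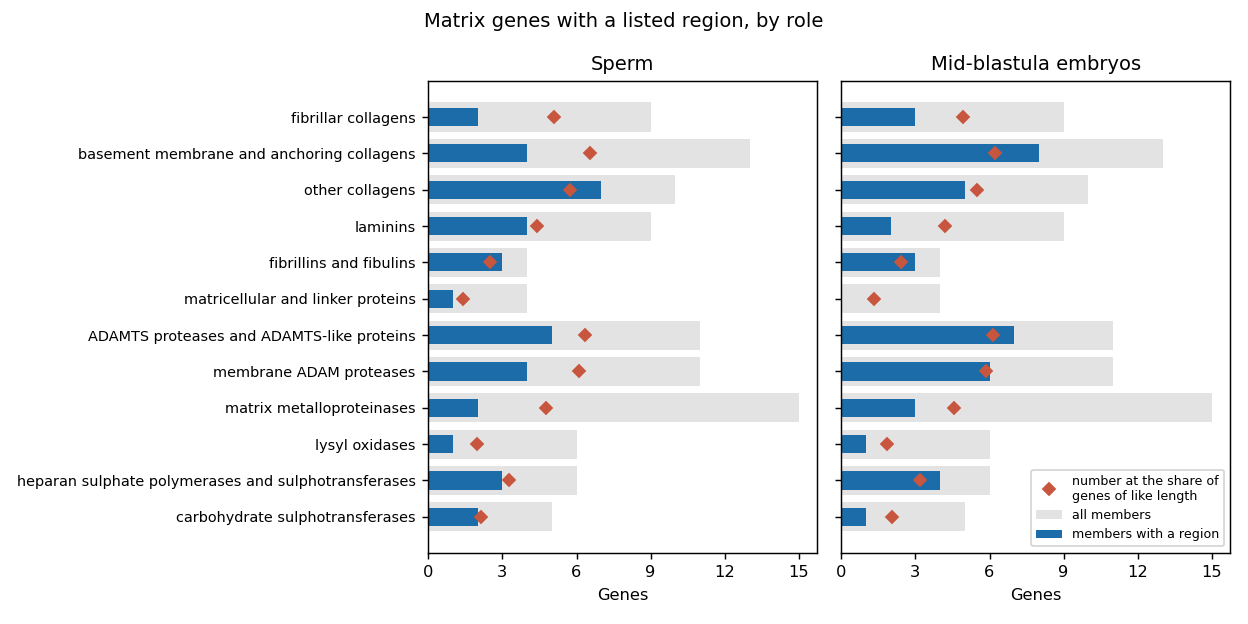
Number of matrix genes by role (grey bars), number that held a listed DMR (blue bars) and number that would hold one at the share of genes of like length (diamonds), for sperm and embryos. loxhd1b is not drawn. In sperm the blue bar lies left of the diamond for all roles drawn except the other collagens (7 against 5.75) and the fibrillins and fibulins (3 against 2.50).

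Among the 17 enzymes of cross-links and glycans, 6 held a DMR in each list, against 7.37 and 7.11. Of the 6 lysyl oxidase genes loxl3a alone held any. Its 3 sperm DMRs had 49.9% and 75.2%, the largest gain of any member, 86.6% and 98.3%, and 35.0% and 22.3%, and its embryo DMR 94.6% and 82.1%. The 11 genes of glycan synthesis carried 15 sperm and 19 embryo DMRs, against 14.9 and 13.7 for like length. Of the 19, 11 lay in chst10, the gene of the sulphotransferase of the HNK-1 carbohydrate of neural cells. chst10 spans 154.4 kb of A1 and held 8 sperm and 11 embryo DMRs, where genes of the longest class, from 71.3 to 1793 kb, held 3.67 and 3.35 on average. In sperm 7 of 8 were higher in stored sperm, by 10.2 to 16.5 points, the largest at 75.2% and 91.7%. In embryos 8 of 11 were lower, by -10.2 to -18.7 points, the largest at 95.1% and 76.4%, and the largest of the 3 higher ones had 80.8% and 98.9%. No sperm DMR of chst10 overlapped an embryo DMR. Without chst10, left out after its values were seen, 67.5% of sperm and 41.7% of embryo DMRs in members were hypermethylated.

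Enzymes of heparan sulphate, the sulphated glycan that binds growth factors, had mixed directions. In hs6st1a, a 6-O-sulphotransferase gene, all 3 sperm DMRs were lower, with the largest fall of any member in sperm, from 80.5% to 62.3% at B2, 23813853 to 23813903. Another had 98.2% and 83.7%. A DMR at 82.4% and 71.5% in sperm overlapped a DMR at 84.9% and 72.7% in embryos by 16 bp. A further embryo DMR 291 bp from that sperm DMR was higher, at 62.6% and 77.4%. hs3st3b1b, a 3-O-sulphotransferase gene, had 80.2% and 98.8% in sperm. hs3st4, of the same enzyme family, held 3 embryo DMRs and no sperm DMR, at 98.8% and 88.5%, 99.7% and 89.6%, and 86.9% and 97.7%. In ext2, a subunit of the heparan sulphate polymerase, both sperm DMRs and the embryo DMR were higher with stored sperm, the last at 86.7% and 97.9%. hs6st2, a gene of 5.72 kb, had 2 embryo DMRs, both lower, and chst11, a chondroitin sulphotransferase gene, had 86.7% and 97.8% in sperm. The non-matrix loxhd1b held 1 DMR of each direction in each list, with the largest difference in sperm at 96.1% and 83.9%.

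**Figure D5:**
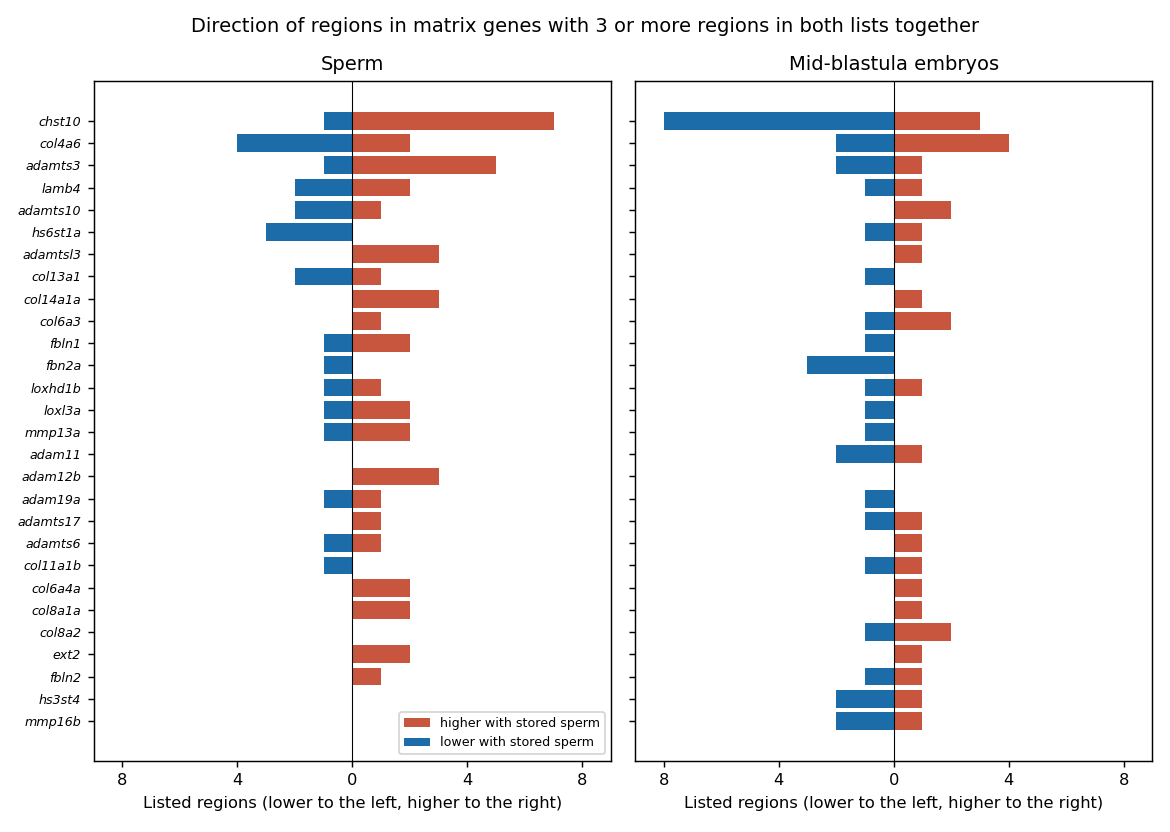
Number of listed DMRs in each matrix gene with at least 3 DMRs over both lists, with hypomethylated DMRs to the left and hypermethylated DMRs to the right of 0, for sperm and embryos. chst10 has 7 hypermethylated and 1 hypomethylated DMR in sperm and 3 and 8 in embryos, and fbn2a is lower in all of its DMRs.

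Sperm and embryo DMRs rarely met at the same site. Only 3 pairs of DMRs in matrix genes overlapped, in lamb4, hs6st1a and col11a1b, which are 3.53% of their sperm and 3.61% of their embryo DMRs. Over all genes these shares were 6.95% and 7.41%. The pair in hs6st1a went in the same direction, and those in lamb4 and col11a1b did not, where 716 of 1509 pairs over all genes, or 47.4%, had the same direction. In col11a1b, a chain of minor fibrils in cartilage, a sperm DMR of 30 CpGs at A2, 9555778 to 9556184, had 84.1% and 73.5%. The embryo DMR inside it, of 5 CpGs at 9556024 to 9556038, had 65.4% and 85.2%. A further 14 pairs in 9 genes were apart by less than 1 kb, and 7 of them had the same direction. The share for such near pairs over all genes was not computed.

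Over whole genes the mean difference could be compared in the 30 members with DMRs in both lists. It had opposite signs in 17 and the same sign in 13, or 56.7% opposite, against 50.6% of the 6081 genes with DMRs in both lists. Higher in sperm and lower in embryos was the most frequent pattern, in 12 of 30 members, against 31.6% of these 6081 genes. Lower in sperm and higher in embryos was found in 5, higher in both in 7 and lower in both in 6. Some of these signs rest on means near 0 over DMRs of both directions, as in adamts6 in sperm, with a mean of -0.042 points, and in loxhd1b, with -0.315 in sperm and -0.215 in embryos, which counts as lower in both. In 7 members both lists held exactly 1 DMR, and 5 of these were higher in sperm and lower in embryos. The share of this pattern over all genes with 1 DMR in each list was not computed. The 5 members were adam10a, col28a1b, col4a3, col4a4 and mmp21. col28a1b had 73.6% and 88.8% in sperm and 75.3% and 61.9% in embryos.

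Along genes the middle part held a larger share of the members' DMRs than of all DMRs. In the middle 40% of the gene body were 47 of 85 sperm DMRs and 42 of 82 embryo DMRs, or 55.3% and 51.2%, against 41.8% and 41.7% over all genes. The outermost 20% of the gene body, both ends together, held 12.9% of sperm and 18.3% of embryo DMRs of members, against 17.5% and 17.6%, so in embryos the share at the ends was no lower. These shares are not matched for gene length. The gene table gives no strand, so the first and last exons could not be told apart. Members on B chromosomes were more numerous than on A chromosomes, at 71 and 33, where all placed protein-coding genes number 21598 and 20272. Members were found by symbol, and the share of genes with a symbol on each set of chromosomes was not computed. Both sets of members had fewer genes with a sperm DMR than at like length, with 30 against 36.5 on B and 9 against 14.5 on A. In embryos these were 32 against 35.0 and 12 against 13.9.

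A list of 81 further matrix and matrix receptor genes (fibronectin, nidogens, integrins, glypicans, syndecans, proteoglycan enzymes and others), chosen by symbol, was counted in the same way for comparison, and the difference from the 104 members was not tested. In sperm 33 held 59 DMRs, against 39.4 genes and 88.8 DMRs at like length, with 39 hypermethylated and 20 hypomethylated. Their hypermethylated share in sperm was 66.1%, against 64.0% over all genes. In embryos 30 held 43 DMRs, against 37.8 genes and 82.1 DMRs, with 24 hypermethylated and 19 hypomethylated. The ratio of DMRs to the number at like length was 0.665 in sperm and 0.524 in embryos. For the 104 members it was 0.733 and 0.774, so fewer DMRs than at like length were not particular to them. The hypermethylated share of 55.8% in embryos lay on the other side of 50.1% over all genes from the 39.8% of the members. Its Wilson interval, 41.1 to 69.6, includes 50.1% and overlaps that of the members, 29.9 to 50.5. Both intervals treat DMRs as independent, and their overlap is not a test of the difference. By gene, 26 had a hypermethylated and 15 a hypomethylated DMR in sperm, and 18 had each in embryos. Over all genes, of any length, 21.3% and 13.2% had one in sperm, and 16.7% and 16.5% in embryos. A difference of at least 20 points was reached by 1 sperm and 2 embryo DMRs of this list, with medians of 12.7 and 11.8 points. The sperm DMR was in spon2b of the spondin family, with 76.2% in fresh and 97.5% in stored sperm. The embryo DMRs were in sulf2b, a heparan sulphate sulphatase gene, with 84.6% and 61.0%, and in frem1a, a basement membrane protein gene, with 43.5% and 64.8%.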

How the data were processed

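Sperm and mid-blastula embryos were sequenced after bisulphite conversion. The authors aligned filtered reads with BSMAP, whose version is not given in the sources used here, removed duplicate reads and took methylated over all reads as the level of a cytosine. The authors deposited, for each CpG region, 1 level per group as a fraction (printed here as a percentage), the number of CpGs, a signed difference and a p-value. The deposited p-value was read only to check that all lie below 0.05, and the deposited difference only to check that it equals fresh minus stored. Differences here are stored minus fresh. A 2-fold change, named in the methods, is reached by 3.94% and 4.20% of the sperm and embryo regions. Depth per library behind these levels is not in the lists, and near-identical gene copies could share reads, with their part not tested.

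The 50 chromosome accessions, sorted, were taken as A1 to A25 and then B1 to B25 of the RefSeq gene table. Of 41022 sperm and 39021 embryo regions, 3143 and 3059 on unplaced sequence were not used. Regions were assigned to every protein-coding gene whose body or 1 kb flank they touched. Numbers at like length sum, over members, the share of all placed protein-coding genes in the member's length class. The calculation was tested on simulated data in which a DMR depended only on gene length and a set excess in members. That checks the calculation, and not how well the length classes match the members. No p-values are given, because levels are not replicated. Text names the 10 largest differences per direction and list, the 5 members with most regions, overlapping pairs and the largest difference per role. Any further gene was chosen with its values known. Members and lists were chosen with earlier results of these data known. Alternatives varied the flank, difference, CpG number, shared regions, length matching and members. Python 3.11.15, pandas 2.3.3 and scipy 1.17.1 were used. No sequence tables were used here.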

Additional observations from a re-analysis of the deposited data

How the results depend on the processing

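The excess over genes of any length depended on the length comparison. Without length classes the ratio of members with a DMR was 1.32 in sperm and 1.57 in embryos, whereas with 10 or 40 classes, the nearest 200 genes by length or named genes alone (the last 2 chosen after seeing the data) it stayed between 0.752 and 0.767 in sperm and between 0.887 and 0.919 in embryos. A 5 kb flank gave 50.0% of members with a sperm and 53.8% with an embryo DMR, and the ratios to genes of like length rose to 0.876 and 0.984, which for embryos nearly removed the shortfall. Few DMRs passed stricter limits. With a difference of at least 0.2, 1.92% of members held a sperm and 4.81% an embryo DMR, at ratios of 0.273 and 0.673, and the hypermethylated share was 100% of 2 in sperm and 20% of 5 in embryos. With at least 10 CpGs, 7.69% and 4.81% of members held one, at ratios of 0.855 in sperm and 0.521 in embryos. Of these DMRs 80% of 10 in sperm and 40% of 5 in embryos were hypermethylated. When an overlap had to cover no less than 50% of the shorter DMR, 0% of 2 pairs had the same direction, against 33.3% of 3, and under the limits on difference and CpG number no overlapping pair was left. Shared DMRs, loxhd1b, mmp13a or chst10 left out, and gene bodies alone, moved no share beyond its counting interval. These settings touch few members or DMRs and could hardly have moved a share that far, so they decide little. No paired analysis was possible because the lists hold 1 level per group, and for the same reason no library could be left out.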
